A study of Mus musculus with 2 samples.

Results

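Stmn2-positive keratinocytes were epithelial cells found almost wholly in the control library of a mouse tongue cancer experiment. Besides Stmn2 itself, they held far more RNA than the other keratinocytes of Cdo1, the enzyme that oxidises cysteine on the way to taurine, and of Stra6, the membrane receptor that takes up retinol. Some of them carried very high RNA of Ppbp, a neutrophil-attracting chemokine, and of the non-coding gene BC037156. They held less RNA of most suprabasal, wound and cornifying genes measured. In the 660 of the 829 cells that fell into 2 expression clusters, genes along the whole of chromosome 1 gave less RNA, and genes along chromosomes 4 and X more, than in other control keratinocytes.

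The cells were selected on measured values. Barcodes needed 200 genes or more, and mitochondrial transcripts below 20% of UMIs (unique molecular identifiers, each standing for 1 captured RNA molecule). A barcode counted as a keratinocyte when Krt5 and Krt14 together made up at least 0.5% of its UMIs and Ptprc, the pan-leukocyte gene, had none. Keratinocytes with at least 3 Stmn2 UMIs formed the Stmn2-positive set: 829 of 4701 control keratinocytes, or 17.6% (95% exact binomial interval 16.6 to 18.8%), and 10.0% of the 8269 kept control barcodes. Of 22737 kept barcodes in both libraries, 8269 were from the control library. The comparison set, called other control keratinocytes, was the 3591 cells of the same library under the same keratin limit with no Stmn2 UMI.

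Both libraries came from tongue squamous carcinomas that the carcinogen 4NQO had raised in wild-type C57BL/6 mice. One library held tumour cells of mice then given JQ1, an inhibitor of BET bromodomain proteins, for 10 days, and the other those of mice kept as controls over the same 10 days. The cells were captured with 10x 3' chemistry, and each treatment had 1 library. How many mice went into a library, and their age and sex, are not recorded in the labels. Values therefore describe 2 libraries: cells of 1 library are not replicates, no test was made, and every interval below covers counting error only.

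Stathmin-2, the product of Stmn2, belongs to a family of proteins that bind tubulin and regulate the turnover of microtubules, and it is best known from growing axons. Keratinocytes of the tongue divide in a basal layer that expresses Krt5 and Krt14. Above it they switch to Krt4 and Krt13 or, on the papillae and in keratinised areas, to other keratins, and they take up Krt6, Krt16 and S100a8 after wounding and in carcinomas. 4NQO forms bulky DNA adducts and is widely used to raise squamous tumours of the mouse tongue.

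The JQ1 library held 99565417 UMIs in 16233 barcodes and the control library 118382532 UMIs in 9754 barcodes, with medians of 3948.5 and 11435 UMIs per kept barcode. No deposited barcode had under 500 UMIs. The libraries shared 40 barcode sequences, 5 of them among the Stmn2-positive cells. The Stmn2-positive cells were deeper than the rest, with a median of 26074 UMIs and 4824 genes, against 15893 UMIs and 3517 genes in other control keratinocytes. Mitochondrial UMIs made up 2.54% and 2.81% at the median, and Krt5 with Krt14 1.23% and 1.33%. Scrublet marked 25 of the 829 Stmn2-positive cells (3.02%) and 40 of the 3591 other keratinocytes (1.11%) as doublets, and they were kept. Levels are given in CPM, the UMIs of a gene summed over a set of cells and scaled to the summed UMIs of that set, so that depth alone does not raise them.

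Stmn2 had a quartile range of 7 to 29 UMIs per selected cell, with a median of 15 and a highest value of 118. A further 281 control keratinocytes (5.98%) held 1 or 2 Stmn2 UMIs and stayed out of both sets. In the JQ1 library, 14 of 1198 keratinocytes (1.17%, 0.640 to 1.95%) passed the same rule, 30 had 1 or 2 UMIs and 1154 (96.3%) had none. The 14 JQ1 cells held 3 to 8 Stmn2 UMIs, with a median of 3.5. JQ1 keratinocytes without Stmn2 were shallower than the Stmn2-positive cells, at a median of 12347.5 UMIs, so the libraries were also compared after thinning. Thinned to 5000 UMIs a cell, 19 JQ1 and 824 control keratinocytes held at least 1 Stmn2 UMI, whatever their count before thinning. The control cells were 19% of those deep enough, and the JQ1 share is not given here. Of the Stmn2-positive control cells themselves, 711 of 826 (86.1%) kept a Stmn2 UMI at that depth.

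**Figure D1:**
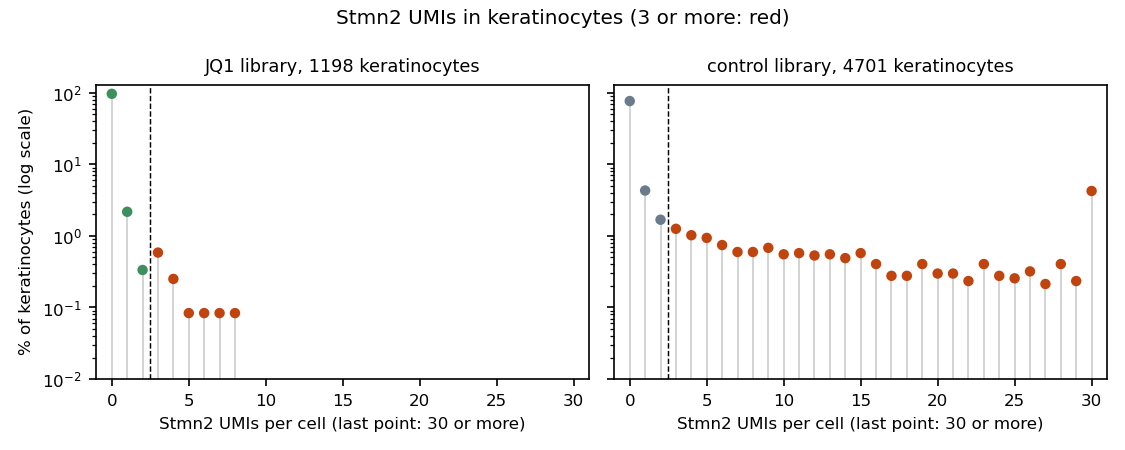
Percent of a library's keratinocytes (vertical axis, log scale) by Stmn2 UMIs in the cell (horizontal axis, last point 30 or more), for the JQ1 library on the left and the control library on the right, with the limit of 3 UMIs dashed. In the JQ1 library 14 of 1198 keratinocytes reach the limit and none passes 8 UMIs, while 829 of 4701 control keratinocytes reach it and the highest holds 118.

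Cdo1 and Stra6 were higher in cells with many Stmn2 UMIs than in cells with few, and did not break at the limit of 3. Cdo1 stood at 311 CPM in the 59 cells with exactly 3 Stmn2 UMIs, just inside, and at 242 CPM in the 79 cells with 2, just outside. Stra6 stood at 209 and 208 CPM in the same cells. Cells with at least 20 Stmn2 UMIs reached 781 CPM of Cdo1 and 433 CPM of Stra6, and cells with none had 18.0 and 9.63 CPM. Ppbp and BC037156 followed no such order. Ppbp was 1390 CPM in cells with at least 20 Stmn2 UMIs and 1362 CPM in cells with 2, and BC037156 was highest, at 10498 CPM, in cells with exactly 4. The share of cells in the Stmn2-rich clusters described below also rose with the Stmn2 count. It was 2.70% with none, 43.0% with 2, 55.9% with 3 and 93.2% with at least 20. Whether Cdo1 and Stra6 rise with Stmn2 inside those clusters was not tested.

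The 4 marker genes other than Stmn2 were given with the selection and describe the cells without supporting it. Positions below are from GENCODE M21 on GRCm38. Stmn2 (ENSMUSG00000027500) lies on chromosome 3 from 8509360 to 8561606. Stra6 (ENSMUSG00000032327) lies on chromosome 9 from 58063788 to 58153996, and Cdo1 (ENSMUSG00000033022) on chromosome 18. BC037156 (ENSMUSG00000105888), annotated as a long intergenic non-coding RNA, lies on chromosome 5 from 87908779 to 87914171. Ppbp (ENSMUSG00000029372) lies on the same chromosome from 90768518 to 90770063, and all except Cdo1, whose strand is not given here, are on the plus strand.

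Cdo1 and Stra6 were spread over most of the selected cells. Cdo1 was at 616 CPM in 82.5% of Stmn2-positive cells, against 18.0 CPM in 7.07% of other control keratinocytes, a ratio of 34.3 (32.3 to 36.5). Stra6 was at 352 CPM in 82.8%, against 9.63 CPM in 5.49%, a ratio of 36.6 (33.7 to 39.8). Thinned to 2000 UMIs, Cdo1 was still found in 53.7% of Stmn2-positive cells, against 2.47% of other keratinocytes and 0.725% of control leukocytes. Stra6 was found in 44.9%, against 1.79% of other keratinocytes, 0.725% of leukocytes and 10.3% of fibroblasts. Each leukocyte share rests on 1 of 138 cells (0.0183 to 3.97%), and Cdo1 was in 4.12% of fibroblasts. The part of free RNA in these shares was not tested.

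Ppbp and BC037156 were uneven instead. Ppbp had 33686 UMIs in the Stmn2-positive cells, or 1411 CPM, against 11551 UMIs or 184 CPM in other keratinocytes. Of the 829 cells, 431 had no Ppbp UMI, and the 10% of cells with most Ppbp held 83.3% of it. BC037156 had 149627 UMIs (6266 CPM), against 72168 (1147 CPM), with 397 cells at 0 and 94.3% of its UMIs in the top 10% of cells. The highest single cell held 7638 BC037156 UMIs among Stmn2-positive cells and 8918 among the others. Thinned to 2000 UMIs, BC037156 was in 26.3% of Stmn2-positive cells, against 5.91% of other keratinocytes and 7.25% of leukocytes. The leukocyte share rests on 10 of 138 cells (3.53 to 12.9%), and the share in fibroblasts was 3.09%. The part of free RNA in the share of other keratinocytes was not tested.

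The keratinocytes of both libraries were grouped together by their expression with Stmn2 left out. Of 22 groups, 2 were made up of Stmn2-positive cells for more than 50%, and these are called the Stmn2-rich clusters. One held 580 cells, 519 of them Stmn2-positive (89.5%), and was led by U90926, Stra6, Postn and Cdo1 beside Stmn2. The other held 260 cells, 141 of them Stmn2-positive (54.2%), and was led by Psca, BC037156, Ppbp and Sprr1a. Together they held 660 of the 829 Stmn2-positive cells (79.6%, 76.7 to 82.3%), 97 of the 3591 other control keratinocytes (2.70%) and 1 of the 1198 JQ1 keratinocytes. The remaining 169 Stmn2-positive cells (20.4%) lay among other keratinocytes, 46 in a group led by Csn1s1, Krt42 and Krt1 and 48 in a group led by Mmp13 and Mmp9. Of these 169, 10 were called doublets (5.92%), against 15 of the 660 (2.27%). Since the grouping used these genes, the differences between the 660 and the 169 cells are a description.

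The marker genes were far higher in the 660 cells than in the 169. In the 169 they were above other control keratinocytes outside the Stmn2-rich clusters, but not all were above the whole comparison set. Against other control keratinocytes outside the Stmn2-rich clusters, all 4 markers beside Stmn2 were higher in the 169 cells (median log2 ratio 3.57) and in the 660 (7.17). Stmn2 was at 813 CPM in the 660 and 407 CPM in the 169. Cdo1 was at 740.3 CPM in 97.9% of the 660, against 77.1 CPM in 22.5% of the 169, 5.17 CPM in other control keratinocytes outside the Stmn2-rich clusters and 7.19 CPM in JQ1 keratinocytes without Stmn2. Stra6 was at 423 CPM in 98.6% of the 660, against 44.6 CPM in 20.7% of the 169. Ppbp was at 1729 and 35.9 CPM, and BC037156 at 7688 and 119 CPM. All 3591 other control keratinocytes, the 97 in those clusters included, had 184 CPM of Ppbp and 1147 CPM of BC037156. They had 18.0 CPM of Cdo1 and 9.63 CPM of Stra6. Against these, the 169 cells were lower for Ppbp and BC037156 and higher for Cdo1 and Stra6. The wound keratin Krt16 was at 718 CPM in the 660, 3555 CPM in the 169 and 4974 CPM in other control keratinocytes outside the 2 clusters. S100a8, an antimicrobial calcium-binding protein, was at 132, 3169.8 and 3119 CPM in the same sets. For Krt16 and S100a8 the 169 cells stood nearer to the other keratinocytes than to the 660.

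The 97 other control keratinocytes inside the Stmn2-rich clusters carried most of what the comparison set held of these genes. They held 98.1% of the Ppbp UMIs of all 3591 other keratinocytes, 95.5% of BC037156, 71.9% of Cdo1 and 67.7% of Stra6. They also held 94.6% of Krt90, a keratin gene, and 78.5% of the chemokine Cxcl5. Ratios of these 6 genes against all other control keratinocytes are therefore lower than against those outside the 2 clusters.

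Of 8103 genes measured in this comparison, 686 were at least 2-fold higher (8.47%) and 447 at least 2-fold lower (5.52%) in Stmn2-positive cells than in other control keratinocytes. Measured means at least 20 UMIs over both sets and 10 CPM in the higher one. The median gene had a log2 ratio of 0.08. Genes were picked for naming by the end of their ratio's interval nearest to no change, among those with at least 50 CPM in at least 10% of the cells of the higher set. The 25 highest lay on 13 chromosomes, with at most 4 on one chromosome.

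Of the 25 highest genes, 7 that encode secreted or matrix proteins are given first. Calcb, the beta form of the vasodilating neuropeptide CGRP, was at 185 CPM, against 4.93 CPM in other keratinocytes. It was uneven, with 496 Stmn2-positive cells at 0 and 80.9% of its UMIs in the top 10% of cells. Postn, the matrix protein periostin, was at 139 against 6.99 CPM and Timp1, an inhibitor of matrix metalloproteinases, at 157 against 10.0 CPM. Col12a1, a collagen that sits on fibril surfaces, was at 128 against 9.92 CPM and Fbln2, the matrix protein fibulin-2, at 86.0 against 7.14 CPM. Crisp1, a secreted protein known from the epididymis, was at 209 against 11.8 CPM, and Fibin, a secreted protein known from the zebrafish fin bud, at 90.9 against 3.56 CPM. Postn, Timp1, Col12a1 and Fbln2 are also fibroblast genes, at 5963, 2112, 2567 and 871 CPM in control fibroblasts. The fibroblast list of 8 genes summed to 178 CPM in Stmn2-positive cells and 179 CPM in other keratinocytes, with 1 higher and 1 lower of the 2 measured. Postn itself is in this list and gave 139 of the 178 CPM, but 6.99 of the 179 CPM. The near-equal sums therefore do not show equal levels of the other fibroblast genes. In the 169 cells outside the Stmn2-rich clusters 4 of 5 measured fibroblast genes were higher than in other keratinocytes outside them (median 1.73), and in the 660 cells 1 of 3 was higher and 2 lower (-3.30). In these comparisons the median log2 ratio over 8103 genes was 0.01 for the 169 cells and 0.09 for the 660. The share of all genes past 2-fold is not given for them here. The part of fibroblast RNA in the matrix genes was not tested.

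A second set of named genes acts at the membrane and in signalling. Prkg2, a kinase activated by cyclic GMP, was at 282 CPM in 86.4% of Stmn2-positive cells, against 16.8 CPM in 14.9% of other keratinocytes. Nkd2, an inhibitor of Wnt signalling at Dishevelled, was 17.0-fold higher, with 5.90 CPM in other keratinocytes. Adgrg2, an adhesion receptor known from the epididymis, was at 101 against 4.97 CPM. Tmem176b and Tmem176a, membrane proteins known from immune cells, were at 698 against 43.7 CPM and 374 against 27.2 CPM. These 2 genes overlap by 0.577 kb on chromosome 6 and lie on opposite strands. How reads in the overlap were counted is not recorded in the labels, and sharing of UMIs was not tested.

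Some of the named genes are known from neurons. Srgap3, which acts downstream of the guidance receptor Robo, was at 70.0 against 3.51 CPM. Ntng1, netrin-G1, an axon guidance protein, was at 51.8 against 2.72 CPM, and Dclk1, a kinase that binds microtubules, at 55.9 against 1.92 CPM. The list of 25 neuronal genes as a whole was not higher. Only 3 of the 25 were measured, and they split as 1 higher (Ncam1, an adhesion molecule, 28.9 against 6.20 CPM), 1 lower (Nefl, a neurofilament, 0.963 against 11.0 CPM) and 1 within 2-fold (Tubb3, a tubulin, 104 against 93.3 CPM). The list summed to 138 CPM, against 122 CPM in other keratinocytes, and 9 of the 25 were at 0. Among the other stathmins, Stmn1, a regulator of microtubules in dividing cells, was at 145 against 235 CPM, and Stmn3 and Stmn4 were at 0 in Stmn2-positive cells.

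Several named genes encode enzymes. Vnn1, a pantetheinase that releases cysteamine, was at 68.0 against 2.08 CPM. Cyp4b1, a cytochrome P450, was at 61.6 against 3.67 CPM, Cda, cytidine deaminase, at 81.4 against 5.47 CPM, and Acy1, aminoacylase 1, at 78.4 against 5.91 CPM. Krt90 was at 273 against 22.96 CPM, Tmem212, a membrane protein, at 69.6 against 2.97 CPM, and U90926 at 214 against 11.3 CPM. U90926 was held by 22.8% of Stmn2-positive cells, and the top 10% of cells held 96.6% of its UMIs.

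The genes furthest below other keratinocytes included keratins and enzymes of the upper tongue epithelium and enzymes of detoxification. Krt15, a keratin of basal and progenitor cells, was at 31.3 CPM in 12.5% of Stmn2-positive cells, against 572 CPM in 40.5% of others, 18.3-fold lower (17.0 to 19.7). The oral suprabasal keratins Krt13 and Krt4 were at 126 against 1473 CPM and 30.7 against 334 CPM. The metallothioneins Mt4 and Mt3 were at 239 against 2505 CPM and 9.34 against 101 CPM. The cross-linking enzyme Tgm3 was at 13.9 against 129.9 CPM, and Cst6, an inhibitor of proteases in cornifying cells, at 6.11 against 64.0 CPM. Hpgd, which inactivates prostaglandins, was at 4.02 against 72.2 CPM, and Ptgr1, which reduces prostaglandins and leukotrienes, at 56.7 against 481 CPM.

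The remaining named genes on this side followed the same direction. Aldh3a1, an aldehyde dehydrogenase, was at 42.7 against 368 CPM, Adh7, an alcohol dehydrogenase that also oxidises retinol, at 75.9 against 526 CPM, and Gsta1, a glutathione transferase with a near-identical copy in Gsta2, at 50.4 against 386 CPM. Ifi27l2a, an interferon-induced gene, was at 7.96 against 97.4 CPM, and Them5, an acyl-CoA thioesterase, at 21.3 against 239 CPM. Sbpl was at 11.6 against 224 CPM, but 1 other keratinocyte held 10202 of its 14083 UMIs. It was found in 24.4% of Stmn2-positive and 23.4% of other cells, and the size of its ratio depends on that cell.

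Ppbp sits in a cluster of neutrophil-attracting chemokine genes on chromosome 5, between 90759360 and 90905938 on the plus strand. Its neighbour Cxcl5 (90759360 to 90761624) was at 704 CPM in 51.7% of Stmn2-positive cells, against 76.8 CPM in 8.05% of other keratinocytes, a ratio of 9.16. Cxcl3 (90786103 to 90789600) was at 312 against 22.8 CPM, a ratio of 13.7. Pf4, between Ppbp and Cxcl3, had 22 UMIs in Stmn2-positive and 16 in other cells, under 10 CPM in both. Cxcl1 (90891241 to 90893115) and Cxcl2 (90903871 to 90905938), further along, were at 727 against 589.6 CPM and 529.8 against 398 CPM, both within 2-fold. The difference was thus held by the genes at one end of the cluster. Like Ppbp, Cxcl5 and Cxcl3 were concentrated, with 79.3% and 84.8% of their UMIs in the top 10% of Stmn2-positive cells.

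Genes beside the chemokine cluster did not share its direction. Mthfd2l, a mitochondrial folate enzyme, was at 38.5 CPM in Stmn2-positive and 35.7 CPM in other cells. Epgn and Ereg, growth factors that bind the Egf receptor, were lower, at 16.8 against 36.6 CPM and 33.0 against 71.2 CPM, and Areg, of the same family, was within 2-fold at 110.3 against 215 CPM. Ppbp is also a platelet gene, and none of 10 further platelet genes reached 10 CPM. Their sum was 4.77 CPM, against 4.85 CPM in other keratinocytes, with 7 of 10 at 0.

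The state of differentiation was read from lists of genes, as the number of measured members higher and lower by 2-fold and the median log2 ratio. Over all 8103 genes the median was 0.08, with 8.47% higher and 5.52% lower. These shares belong beside every list below that is set against all other control keratinocytes, and a count near them does not mark out a list. Of 14 basal genes, 0 were higher and 1 lower, with a median of 0.10. The list holds Krt5 (3884 against 4021 CPM) and Krt14 (10639.7 against 12023 CPM), whose sum the selection fixed at the same limit in both sets. Itgb1, the integrin chain that anchors basal cells, was at 438 against 224 CPM. Of 12 desmosome and adherens junction genes 0 were higher and 0 lower, with a median of -0.15.

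Genes of later layers were mostly lower. Of 7 tongue suprabasal genes 1 was higher and 5 were lower, with a median of -2.00, and the higher one was Mal, a membrane-raft protein, at 96.4 against 24.4 CPM. Of 11 wound and stress genes 0 were higher and 7 lower, with a median of -1.70. They included Krt16 (1251 against 4888 CPM), Krt6b (705 against 2296 CPM), S100a8 (703 against 3053 CPM) and S100a9 (705 against 2057 CPM). Of 11 cornifying genes 1 was higher and 7 were lower, with a median of -1.89. Krtdap, secreted by differentiating keratinocytes, was at 845 against 3127 CPM, while Sprr1a, a precursor of the cornified envelope, was the higher one at 1046 against 258 CPM. Of 12 squamous lineage factors 0 were higher and 2 lower, namely the differentiation regulators Ovol1 (71.7 against 167 CPM) and Zfp750 (17.5 against 46.2 CPM). Trp63, the factor that defines the squamous lineage, was at 317 against 278 CPM.

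**Figure D2:**
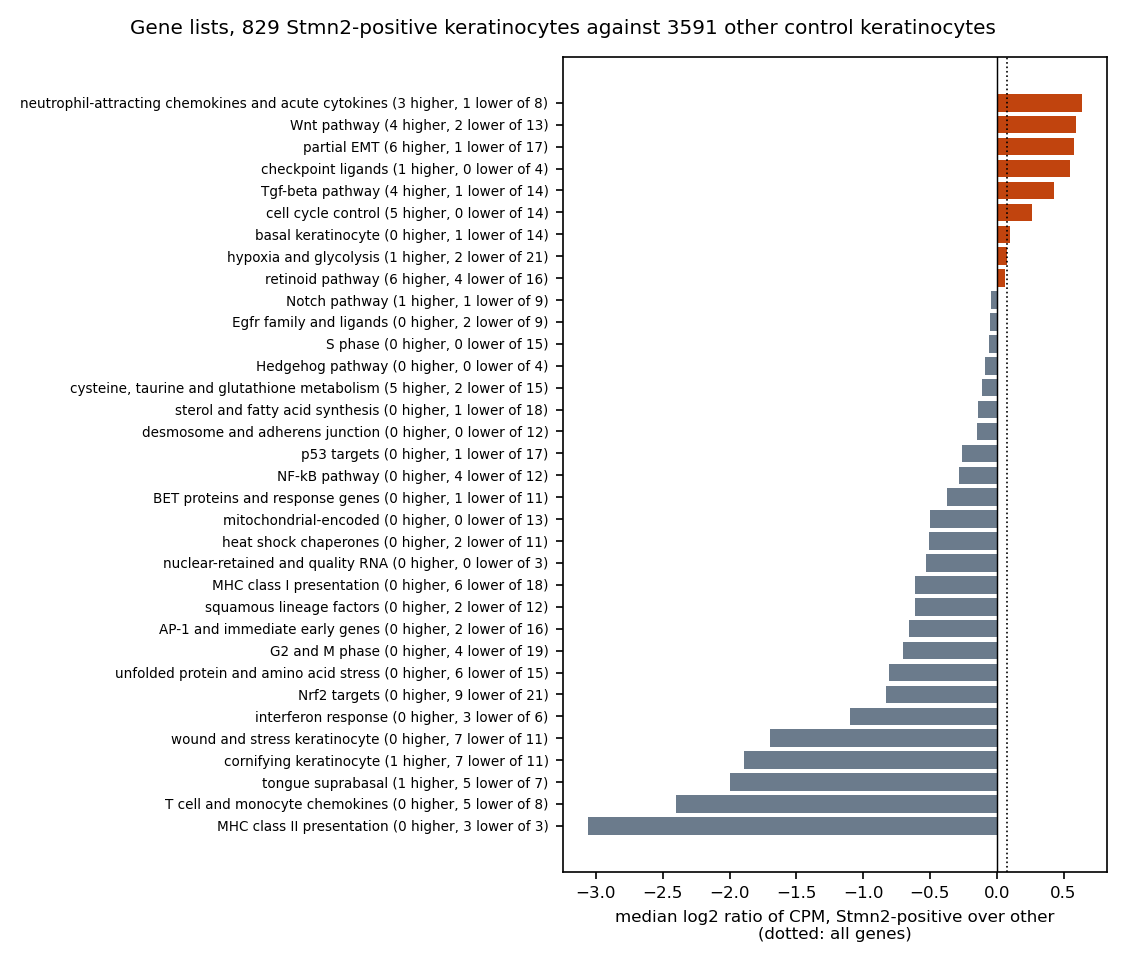
Median log2 ratio of CPM, Stmn2-positive over other control keratinocytes (horizontal axis), for each list of keratinocyte states, pathways and RNA quality with at least 3 measured genes (1 bar a list); the dotted line is the median of all 8103 measured genes, 0.08. The bars of MHC class II presentation (-3.06), the T cell and monocyte chemokines (-2.40), tongue suprabasal (-2.00), cornifying (-1.89) and wound (-1.70) lists reach furthest left among the lists shown, and those of neutrophil-attracting chemokines (0.64) and partial EMT (0.58) are among the furthest right.

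Genes of retinoid handling differed in both directions, 6 of 16 higher and 4 lower, with a median of 0.06. Beside Stra6, the higher ones included Dhrs3, which turns retinal back into retinol (114 against 12.2 CPM), Rarb, a retinoic acid receptor (10.6 against 0.477 CPM), and Aldh1a3 and Rdh10, enzymes of retinoic acid synthesis (31.6 against 8.69 CPM and 42.1 against 18.7 CPM). Lower were Crabp1, a carrier of retinoic acid (2.97 against 38.9 CPM), Cyp26b1, which degrades it (9.51 against 23.3 CPM), the esterifying enzyme Lrat, and Rbp7, a retinol carrier. Crabp2 was within 2-fold at 415 against 218 CPM.

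Cdo1 belongs to the list of cysteine, taurine and glutathione metabolism, where 5 of 15 genes were higher and 2 lower, with a median of -0.11. Higher with Cdo1 were Cth and Cbs, which make cysteine from homocysteine (34.1 against 13.7 CPM and 10.6 against 3.34 CPM), Ggt1, which splits glutathione outside the cell (26.0 against 3.54 CPM), and Gsr, which regenerates glutathione (242 against 109.7 CPM). Lower were Slc7a11, the cystine importer (36.9 against 212 CPM), and Gclc, which starts glutathione synthesis (143 against 294 CPM). Both are also targets of the oxidative stress factor Nrf2. Of 21 Nrf2 targets 0 were higher and 9 lower, with a median of -0.83, among them Nqo1, a quinone reductase (40.1 against 171 CPM).

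RNA of the late cell cycle was found in a smaller share of the Stmn2-positive cells than of all other control keratinocytes. Thinned to 5000 UMIs, Mki67 or Top2a, genes of cells in cycle, was found in 11.7% of 826 Stmn2-positive cells (9.63 to 14.1%), against 26.3% of 3241 other control keratinocytes (24.8 to 27.9%). Without thinning the shares were 26.9% and 39.8%. Of 19 G2 and M phase genes 0 were higher and 4 lower, with a median of -0.70, while of 15 S phase genes none passed 2-fold, with a median of -0.06. Among sets without Stmn2, the share was 35.7% in JQ1 keratinocytes and 15.1% (12.9 to 17.6%) in control keratinocytes high in Krt16 and Krt6a, an interval that overlaps that of the Stmn2-positive cells.

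Cell cycle control genes were higher in 5 of 14 and lower in 0, with a median of 0.26. They were the D-type cyclins Ccnd2 (1038 against 159 CPM), Ccnd1 (1000.5 against 229 CPM) and Ccnd3 (63.6 against 21.4 CPM), which drive entry into the cycle, and the inhibitors Cdkn2a (412 against 66.3 CPM) and Cdkn2b (69.9 against 26.5 CPM), which block the kinases those cyclins bind. Thinned to 5000 UMIs, Cdkn2a was in 77.8% of Stmn2-positive cells, against 20.5% of other control keratinocytes and 17.8% of JQ1 keratinocytes without Stmn2. It was in 34.5% of Krt42-high and 22.8% of Krt16 and Krt6a-high control keratinocytes. Within the Stmn2-positive cells it was in 90.3% inside the Stmn2-rich clusters and 32.1% outside them. Of 17 p53 targets 0 were higher and 1 lower, with a median of -0.26.

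Some genes that attract and engage lymphocytes were lower, and most of those of MHC class I were within 2-fold. Of 8 T cell and monocyte chemokines 0 were higher and 5 lower, with a median of -2.40. They included Ccl2, which attracts monocytes (216 against 944 CPM), Cxcl10, which attracts activated T cells (39.6 against 251 CPM), and Ccl20 (19.6 against 141 CPM). Of 8 neutrophil-attracting chemokines and acute cytokines 3 were higher (Ppbp, Cxcl5 and Cxcl3) and 1 lower (Lcn2, an iron-withholding protein), with a median of 0.64. Of 18 genes of MHC class I presentation 0 were higher and 6 lower, with a median of -0.61, H2-Q7, whose reads may be split with near-identical neighbours, standing at 15.8 against 78.4 CPM. All 3 measured MHC class II genes were lower (median -3.06), as were 3 of 6 interferon response genes (median -1.10).

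The 4 checkpoint ligands held 1 higher gene, Nt5e, the surface enzyme that makes adenosine (117 against 13.0 CPM), and 0 lower. NF-kB pathway genes were higher in 0 and lower in 4 of 12, and AP-1 and immediate early genes in 0 and 2 of 16, with a median of -0.66. Of 15 genes of the unfolded protein response and amino acid stress 0 were higher and 6 lower, with a median of -0.81. Of 11 BET proteins and response genes 0 were higher and 1 lower, Txnip, a regulator of glucose uptake.

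Partial EMT genes, which carcinoma cells at invasive fronts express, were higher in 6 of 17 and lower in 1, with a median of 0.58. Against other keratinocytes outside the Stmn2-rich clusters, 12 of 19 were higher in the 169 cells (median 1.29), beside 4 of 5 fibroblast and 3 of 3 endothelial genes, and 4 of 16 were higher in the 660 (median 0.47). Over 8103 genes the median log2 ratio in these comparisons was 0.01 for the 169 cells and 0.09 for the 660. The share of all genes past 2-fold is not given for them here. The part of fibroblast and endothelial RNA in these values was not tested. Twist1, a transcription factor of mesenchymal cells, was at 33.2 against 2.35 CPM, and Pdpn, podoplanin, a surface protein of invading tumour cells, at 65.7 against 10.6 CPM. The matrix protein Tnc was at 191 against 46.4 CPM, the intermediate filament Vim at 79.3 against 28.5 CPM and the membrane protease Mmp14 at 105 against 49.5 CPM. The 169 cells outside the Stmn2-rich clusters were higher than the 660 for Vim (206 against 50.1 CPM) and the collagenase Mmp13 (73.6 against 16.4 CPM). The 48 of them in the group led by Mmp13 and Mmp9 are part of those values.

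Of 14 Tgf-beta pathway genes 4 were higher and 1 lower, with a median of 0.43. Among the higher were Thbs1, an activator of Tgf-beta (3.37-fold), Ctgf, a matricellular target (99.5 against 24.2 CPM), and Bambi, a decoy receptor (219 against 61.7 CPM). Of 13 Wnt pathway genes 4 were higher and 2 lower, with a median of 0.59. The higher included Nkd2 and Wnt5a, a non-canonical ligand (117 against 52.2 CPM), and the lower Sfrp1, a secreted Wnt inhibitor (11.8 against 58.6 CPM). Of 9 Notch pathway genes 1 was higher and 1 lower.

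Markers of other cell types that a tumour digest can hold were checked. None of 7 endothelial genes reached 10 CPM in either set, and they summed to 19.3 CPM in Stmn2-positive cells and 15.1 CPM in other keratinocytes. The sum was 5.72 CPM in the 660 cells and 78.2 CPM in the 169. At least 3 endothelial UMIs were found in 18 of the 829 cells (2.17%), 13 of them among the 169 (7.69%). Their part in the values of the 169 cells was not tested. The 8 macrophage and dendritic genes summed to 6.99 CPM, against 17.6 CPM in other keratinocytes, with 3 of them at 0. Of 7 T cell genes, Cd3d, Cd3e and Cd3g were at 0, while the receptor constant gene Trac was at 14.7 against 1.11 CPM.

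Merkel cells, neuroendocrine cells of the epithelium, share keratins with simple epithelia. Of 8 Merkel genes 4 were measured, 2 higher and 1 lower. The simple-epithelial keratins Krt8 (64.3 against 10.1 CPM) and Krt18 (152 against 31.7 CPM) were higher, while the defining factors Atoh1 and Pou4f3 and the keratin Krt20 were at 0. Acta2, smooth muscle actin, was at 361 against 65.7 CPM, and Myh11, a myosin that marks smooth muscle, was at 0.209 CPM in Stmn2-positive cells.

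Krt42-high keratinocytes were 1 of 2 like sets, 577 control cells with no Stmn2 and at least 3 UMIs of Krt42, a keratin known from the nail unit. Krt42 itself was at 524 CPM in Stmn2-positive cells, against 2816 CPM in this set. Of 8074 genes 800 were at least 2-fold higher (9.91%) and 407 at least 2-fold lower (5.04%) in Stmn2-positive cells, around an all-gene median of 0.12. Cdo1 was at 616 CPM in Stmn2-positive and 19.6 CPM in Krt42-high cells, and Stra6 at 352 and 13.8 CPM. Wound genes (0 higher, 6 lower of 9, median -1.48) and G2 and M genes (0 and 8 of 19, -0.91) stood lower than there too. Most Nrf2 targets were within 2-fold of the Krt42-high cells, with 1 higher and 1 lower of 20 and a median of -0.22. Cornifying genes split as 3 higher and 7 lower of 11. Mki67 or Top2a was in 11.7% of thinned Stmn2-positive cells, against 31.9% of thinned Krt42-high cells.

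Cells high in Krt16 and Krt6a, the wound keratins, formed the other like set of 978 control cells. Of 8000 genes 1095 were higher (13.7%) and 469 lower (5.86%) in Stmn2-positive cells, around an all-gene median of 0.23. Of 15 S phase genes 6 were higher and 0 lower, with a median of 0.92, while of 16 G2 and M phase genes 0 were higher and 0 lower, with a median of 0.16. Both like sets are part of the 3591 other control keratinocytes and share the Stmn2-positive cells, so these 3 comparisons are not separate evidence.

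Grouped alone, the 829 Stmn2-positive cells fell into 6 groups, and the grouping used the genes that describe them. The first 4 below lay almost wholly in the Stmn2-rich clusters, with 275 of 276, 150 of 152, 142 of 143 and 75 of 75 cells. The largest group, 276 cells (33.3%), was led by matrix and contractile genes. Postn was at 304 CPM, Acta2 at 754, Tnc at 334 and Ctgf at 253, with 263 CPM of Ppbp and 727 CPM of Cdo1. This group held 64.8% of all Postn UMIs of the Stmn2-positive cells.

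Another group of 152 cells (18.3%) was led by U90926 and chemokines. It had the highest Stmn2, at 1202 CPM, with 821 CPM of U90926, 865 CPM of Cxcl3, 1709 CPM of Ppbp and 981 CPM of Cdo1. It held 68.1% of the U90926 and 49.2% of the Cxcl3 UMIs.

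A different group of 143 cells (17.2%) was led by Psca, a GPI-anchored surface protein of stratified and glandular epithelia, at 1222 CPM, with Ly6g6c (408 CPM), Sprr1a (4940.0 CPM), the simple-epithelial keratin Krt19 (169 CPM) and arginase Arg1 (491 CPM). BC037156 reached 24959 CPM and Ppbp 4817 CPM. This group held 73.8% of the BC037156, 63.3% of the Ppbp and 46.1% of the Cxcl5 UMIs. The uneven Ppbp and BC037156 thus lay mainly in 1 group of cells, in which Krt14 stood at 18987 CPM.

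A smaller group of 75 cells (9.05%) held cells in cycle, with 173 CPM of Mki67 and 185 CPM of Top2a and a median of 39342 UMIs. Cdo1 (557 CPM), Stra6 (400.0 CPM) and Stmn2 (671 CPM) were present in these as well. The marker genes were thus held in cycling cells too.

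The group of 175 cells (21.1%) differed from these. S100a8 was at 3097 CPM, Krt16 at 3848, Krt42 at 1189.8 and Mt4 at 1003, while Cdo1 was at 75.7, Stra6 at 57.1 and Ppbp at 14.7 CPM. Of its cells 18 lay in the Stmn2-rich clusters, 14 were called doublets and 31 carried Y-linked RNA without Xist. The last group, 8 cells led by the endothelial genes Pecam1 (299 CPM) and Selp (213 CPM), had 5 doublet calls and none in the Stmn2-rich clusters.

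**Figure D3:**
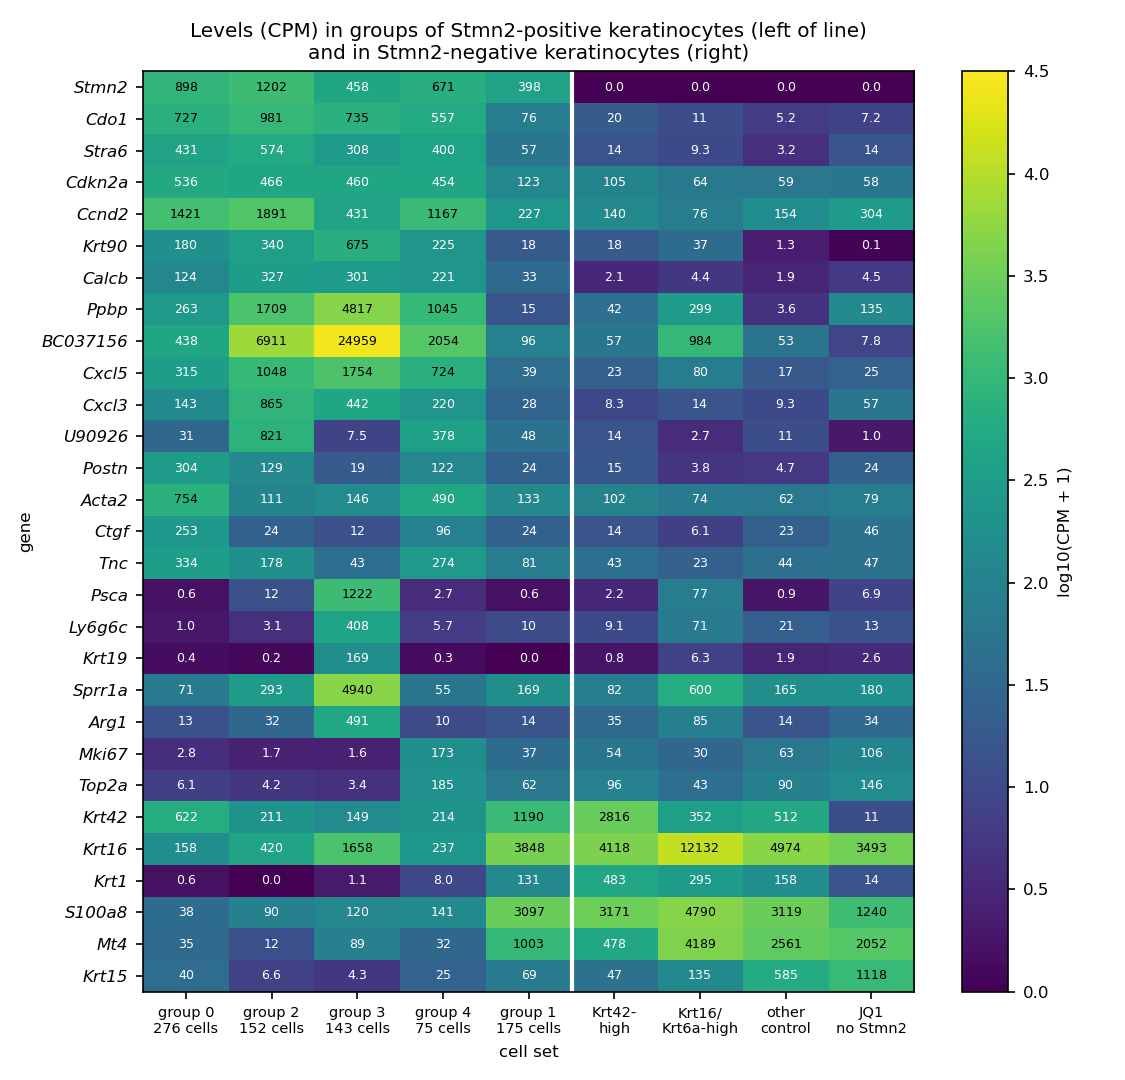
Level of selected genes (rows) as log10(CPM + 1), by colour, in 5 groups of Stmn2-positive cells (left of the white line) and in Krt42-high, Krt16 and Krt6a-high, other control (outside the Stmn2-rich clusters) and JQ1 keratinocytes without Stmn2 (right of it). Cdo1 and Stra6 are high in 4 of the 5 groups, Ppbp and BC037156 reach 4817 and 24959 CPM in the Psca group, and the group of 175 cells is closer to the columns on the right.

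Genes were next placed on chromosomes, and each chromosome's median log2 ratio was taken relative to the median of all genes. For all 829 Stmn2-positive cells against other control keratinocytes, which uses no clustering, the median was -0.30 for chromosome 1 (450 genes, 25.1% above the all-gene median), 0.30 for chromosome 4 (542 genes, 74.5%) and 0.45 for chromosome X (229 genes, 81.2%). For the 660 cells in the Stmn2-rich clusters against other control keratinocytes outside them, with the genes used for clustering left out, the values were -0.40 (410 genes), 0.34 (502 genes) and 0.53 (215 genes). The 169 remaining cells had 0.02, 0.07 and 0.03. JQ1 keratinocytes without Stmn2 had -0.01, -0.02 and 0.00, and Krt42-high cells, part of the comparison set, 0.04, -0.01 and 0.00.

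Both Stmn2-rich clusters taken apart had the pattern, with -0.38, 0.32 and 0.53 for chromosomes 1, 4 and X in the larger and -0.35, 0.31 and 0.49 in the smaller. Over the 14 other control clusters the values lay between -0.10 and 0.09, -0.06 and 0.05, and -0.05 and 0.07. Smaller shifts in the 660 cells were found on chromosomes 3 (0.18), 14 (0.18), 9 (0.17), 19 (-0.14), 17 (-0.13) and 11 (-0.11). DNA copy number was not measured, and its part in the result was not tested.

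**Figure D4:**
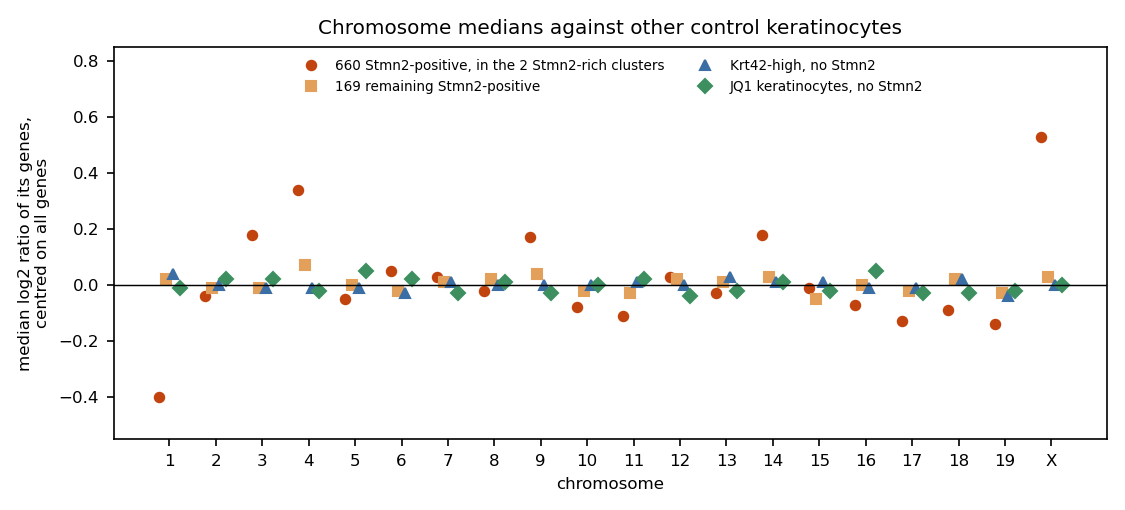
Median log2 ratio of the genes of each chromosome relative to the all-gene median (vertical axis) against other control keratinocytes outside the Stmn2-rich clusters, for 4 sets of cells (point colours), with clustering genes left out. The 660 Stmn2-positive cells in the Stmn2-rich clusters lie at -0.40 on chromosome 1, 0.34 on chromosome 4 and 0.53 on X, while the 169 remaining cells, the Krt42-high and the JQ1 cells lie within 0.10 of 0 there.

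The shift ran along the whole of these chromosomes, in windows that kept the genes used for clustering. In the 660 cells, over windows of 20 Mb with at least 10 genes, all 10 of chromosome 1 were below the all-gene median (-0.58 to -0.29), all 8 of chromosome 4 above it (0.19 to 0.69) and all 9 of X above it (0.13 to 0.66). On chromosome 3 all 8 windows were above (0.09 to 0.30), and on chromosome 14 all 6 (0.08 to 0.52). On chromosome 11 all 7 windows were below (-0.19 to -0.06), and on chromosome 19 all 3 (-0.19 to -0.17).

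The share of a cell's UMIs from 1 chromosome gave the same split in single cells for chromosomes 1 and 4. Chromosome 1 gave a median of 3.54% of UMIs in the 660 cells, 4.82% in the 169 and 4.85% in other control keratinocytes outside the 2 clusters. Chromosome 4 gave 7.53%, 6.18% and 6.26%, and X 4.64%, 4.38% and 3.57%. Below the limit that 10% of the others fell under for chromosome 1 (4.22%) lay 600 of the 660 cells (90.9%) and 18 of the 169 (10.7%), against 13.8% of JQ1 keratinocytes without Stmn2. Above the limit that 10% of the others passed for chromosome 4 (6.99%) lay 535 of the 660 (81.1%) and 15 of the 169 (8.88%). For X (above 4.96%) the sets did not part in this way, with 203 of 660 (30.8%) and 45 of 169 (26.6%). A share of UMIs is weighted by the most abundant genes of a chromosome, which a median over genes is not.

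**Figure D5:**
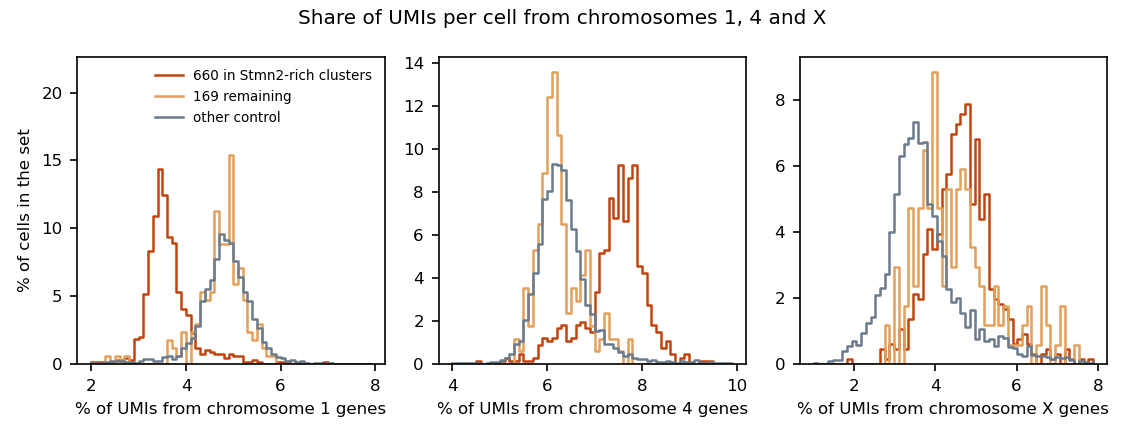
Share of a cell's UMIs from chromosomes 1, 4 and X (horizontal axes, percent) for the 660 Stmn2-positive cells in the Stmn2-rich clusters, the 169 remaining and the other control keratinocytes (vertical axis, percent of the set's cells). On chromosomes 1 and 4 the 660 cells peak apart from the other sets, with medians of 3.54% and 7.53%, and on X the sets overlap.

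The sexes were mixed in the control library. Xist, which is expressed from the inactive X of females, was found without Y-linked RNA in 624 of the 660 cells, Y-linked RNA without Xist in 0, both in 15 and neither in 21. Among the 169 cells the counts were 115, 32, 12 and 10. Among the 3591 other control keratinocytes they were 2429, 687, 96 and 379. Single animals cannot be told apart in these data. All Stmn2-positive cells and all other control keratinocytes were then limited to those with Xist and no Y-linked RNA. Their medians were -0.33 for chromosome 1, 0.31 for chromosome 4 and 0.46 for X, beside -0.30, 0.30 and 0.45 without that limit. Of the 97 other keratinocytes in the Stmn2-rich clusters, 69 had Xist alone and 0 had Y-linked RNA alone. Against other control keratinocytes outside the clusters, with clustering genes left out, these 97 cells had -0.17, 0.20 and 0.44.

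Of the 14 JQ1 keratinocytes that passed the Stmn2 rule, 7 (50%) held at least 3 endothelial UMIs and 4 lay in a group led by endothelial genes. One held 127 Krt42 UMIs and 8 Stmn2 UMIs. In this set Stmn2 was at 199.9 CPM, Cdo1 at 50.8 CPM and Stra6 at 91.5 CPM, against 737, 616 and 352 CPM in the control set. With 14 cells and 1 library for each treatment, the treatment and the animals that went into a library cannot be told apart.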

How the data were processed

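The authors deposited 1 filtered matrix of raw UMI counts per gene and barcode for each library; Cell Ranger 3.1.0, Seurat 4.0.0 and the build mm10 stand in the submitters' processing notes, and further upstream steps are not recorded in the labels. All 31053 genes were read, and GENCODE M21 gave positions for 30934. Counts were summed over sets of cells into CPM. Ratios have exact conditional intervals at 95%, CPM exact Poisson and shares Clopper-Pearson intervals, which cover counting error only. A gene was called at 2-fold with at least 20 UMIs over both sets and 10 CPM in the higher. Named genes needed 50 CPM in 10% of cells; the 25 highest and 15 lowest by the nearer bound were taken, beside genes of the 51 lists that the text describes. Clustering (scanpy 1.11.5, leidenalg 0.10.2) used 2000 variable genes without Stmn2, 30 components, 15 neighbours and resolution 1.0, or 0.5 for the selected cells alone. Fibroblasts had at least 1% collagen UMIs and leukocytes at least 2 Ptprc UMIs. The ratio and calls were run on simulated summed counts that held counting error only, so the simulation cannot show the effect of variation between cells. The cells, the lists and the comparisons were chosen with earlier results of these data known. Alternatives changed the limits on Stmn2, keratin, Ptprc, mitochondria and depth, the doublets, the comparison set and the resolution.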

Additional observations from a re-analysis of the deposited data

How the results depend on the processing

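No paired analysis was possible because each treatment has 1 library. The share of control keratinocytes was 23.6%, 15.4% and 11.8% with at least 1, 5 and 10 Stmn2 UMIs, 18.9% under 10% mitochondrial UMIs, 21.8% among cells with at least 10000 UMIs, and 19% with 1 Stmn2 UMI after thinning to 5000, against 17.6%. The JQ1 cells were 44, 4 and 0 at those 3 Stmn2 limits and 8 at a keratin limit of 1%, against 14. With no filter on low values, 4258 genes were higher and 2458 lower; with ratios centred on the all-gene median, 612 and 499. For the 169 cells outside the Stmn2-rich clusters alone, chosen after seeing the data, 144 genes were higher and 136 lower, the chromosome medians were 0.03 (chromosome 1), 0.07 (4) and 0.02 (X), and the marker list's median was -0.13; against other keratinocytes outside those clusters that median was 3.57. Sbpl turned to 0.40 at a keratin limit of 0.2% and Mt3 to 0.02 against Krt42-high cells. Of 800 values of the 40 named genes, 2 reversed and 13 crossed 2-fold; of 193 list medians 1 reversed and 12 crossed. The cause of these changes was not tested. Genes at a few CPM rest on few UMIs in the 829 cells, and the 14 JQ1 cells are too few for levels of most genes.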

Other observations

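Stmn2 was also found outside keratinocytes. Under the keratin limit, 379 JQ1 and 147 control barcodes held at least 3 Stmn2 UMIs, at 719 and 728 CPM. Of these, 94.99% of the JQ1 and 80.3% of the control barcodes held at least 3 endothelial UMIs, against 2.17% of the Stmn2-positive control keratinocytes. The JQ1 barcodes were led by Ptprb, Cdh5 and Pecam1, genes of vessel lining, and the control ones by Vip and Gal, both neuropeptides, beside Selp, Emcn and Pecam1. Stmn2 was thus shared by barcodes with endothelial genes in both libraries, while Stmn2 with keratins was mostly in the control library.

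Several lists did not part the Stmn2-positive cells from other control keratinocytes. Of 18 sterol and fatty acid synthesis genes 0 were higher and 1 lower (median log2 ratio -0.14), of 4 Hedgehog pathway genes none passed 2-fold (-0.09), and of 13 mitochondrial-encoded genes none did (-0.50). Of 21 hypoxia and glycolysis genes 1 was higher and 2 were lower (0.08). The higher one was Pgk1, an enzyme of glycolysis on chromosome X, at 832 CPM against 357 CPM.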
